A study of Rattus norvegicus with 6 samples.

Results

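Macrophage genes and scavenger receptors were followed in the renal cortex of rats given p-nitroanisole. The set holds 10 genes of the 15645 genes that could be named on the array, and 20 of its 61537 probes. A probe was taken when the accession in the scanner output belonged to one of the 10 genes. The scavenger receptors are Cd163 and Mrc1, the complement chains are C1qa, C1qb and C1qc, the Fc receptor and the signalling adaptor are Fcgr3a and Tyrobp, and the general macrophage genes are Cd68, Csf1r and Aif1. The animals were male Sprague-Dawley rats of the stock Crl:CD(SD), bought at an age of 5 weeks. In one group, 3 rats were dosed with p-nitroanisole, 500 mg/kg each day for 4 weeks. In the other, 3 rats received corn oil, the vehicle, for 4 weeks. RNA of each animal was labelled with the dye Cy3 and hybridised to a 1-colour Agilent array, so that 6 arrays entered the comparison. p-Nitroanisole is a small aromatic nitro compound with a methoxy group, and no genotype or other treatment was named in the labels.

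Macrophages of the kidney lie between tubules and vessels, where they take up dead cells, immune complexes and filtered or leaked protein. Scavenger receptors bring such cargo into the cell: CD163 takes up haemoglobin bound to haptoglobin, and MRC1, the mannose receptor CD206, takes up glycoproteins and collagen fragments. The C1q chains A, B and C fold together into the first component of the classical complement pathway, which macrophages secrete and which binds immune complexes and dying cells. Activating Fc receptors bind antibody-coated targets and signal through the Fc receptor gamma chain, which carries an activation motif (ITAM). TYROBP (DAP12) is another adaptor with an ITAM, used by TREM2 and other myeloid receptors. CSF1R is the receptor for the growth factors CSF1 and IL-34, on which tissue macrophages depend, CD68 is a lysosomal membrane protein, and AIF1 (IBA1) binds actin. PU.1, encoded by Spi1, is the transcription factor on which myeloid gene expression depends.

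The promoters of 5 of the genes described below are shown because the letters of the PU.1 motif are compared in them below. Each holds 250 bases before and 50 bases after the annotated start, 5′ to 3′ on the gene's strand, from RefSeq on the rat assembly GRCr8. Capitals mark GAGGAA and GGAAGT, the letters searched for as PU.1 cores, or their reverse complements. The stretches are those of Mrc1 at chr17:82157475-82157774 on the plus strand, C1qa at chr5:154419884-154420183 and C1qb at chr5:154407778-154408077 on the minus strand, Fcgr3a at chr13:85782386-85782685 on the plus strand, and Cd68 at chr10:54882392-54882691 on the minus strand.
Mrc1: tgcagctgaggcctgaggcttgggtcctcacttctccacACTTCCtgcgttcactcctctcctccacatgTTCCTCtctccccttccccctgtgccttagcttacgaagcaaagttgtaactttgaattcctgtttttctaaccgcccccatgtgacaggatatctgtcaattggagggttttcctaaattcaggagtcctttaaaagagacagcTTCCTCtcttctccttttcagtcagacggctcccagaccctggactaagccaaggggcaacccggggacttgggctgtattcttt
C1qa: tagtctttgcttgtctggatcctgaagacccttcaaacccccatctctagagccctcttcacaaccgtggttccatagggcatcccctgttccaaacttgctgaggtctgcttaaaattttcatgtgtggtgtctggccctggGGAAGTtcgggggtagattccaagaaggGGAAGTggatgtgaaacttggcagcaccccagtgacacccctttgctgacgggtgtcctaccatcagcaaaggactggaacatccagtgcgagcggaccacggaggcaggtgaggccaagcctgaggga
C1qb: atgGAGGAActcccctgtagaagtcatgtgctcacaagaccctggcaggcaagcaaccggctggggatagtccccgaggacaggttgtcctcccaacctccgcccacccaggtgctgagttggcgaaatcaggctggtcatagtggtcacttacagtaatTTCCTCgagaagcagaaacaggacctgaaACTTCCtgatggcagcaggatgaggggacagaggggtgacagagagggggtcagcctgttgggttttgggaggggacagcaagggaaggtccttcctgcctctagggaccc
Fcgr3a: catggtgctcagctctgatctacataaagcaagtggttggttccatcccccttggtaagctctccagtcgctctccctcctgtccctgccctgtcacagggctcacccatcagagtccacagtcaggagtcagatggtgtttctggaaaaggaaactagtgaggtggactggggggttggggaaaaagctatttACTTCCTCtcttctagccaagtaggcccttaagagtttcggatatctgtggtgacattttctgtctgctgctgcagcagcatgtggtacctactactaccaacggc
Cd68: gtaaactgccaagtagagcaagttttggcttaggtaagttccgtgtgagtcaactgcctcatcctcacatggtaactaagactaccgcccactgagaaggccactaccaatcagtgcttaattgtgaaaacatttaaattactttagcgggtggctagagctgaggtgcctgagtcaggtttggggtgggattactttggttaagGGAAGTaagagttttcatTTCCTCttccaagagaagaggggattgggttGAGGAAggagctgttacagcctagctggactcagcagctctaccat

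The RefSeq promoter table held 7 of the 10 genes, namely these 5 with Csf1r and Cd163. GAGGAA was found in 5 of the 7, against 27.6% of the 33469 rat promoters of the same length, and GGAAGT in 5 of the 7, against 22.6%. Either motif was present in 6 of the 7, against 42.3% of all promoters, and Cd163 had neither in this window. C1qa carried GGAAGT at positions -107 and -79 from the start and no GAGGAA. Cd68 carried GGAAGT at -45 and GAGGAA at -27 and at 5. In Fcgr3a, GAGGAA at -54 and GGAAGT at -56 overlap on the minus strand. GAAANNGAA, the core of the interferon-stimulated response element, was found in 2 of the 7 promoters, at -105 in Fcgr3a and at -154 in Csf1r, against 9.71% of all promoters. TGACNNNGC, the antioxidant response element core, was found in 1 of the 7, at -163 in Fcgr3a, against 12.1% of all. Both strands were searched, and a match describes letters, not binding.

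The 6 arrays were alike in depth of signal: 66.4% to 69.2% of probes were well above background, and none was saturated. A level below is the log2 processed intensity relative to the array's own 75th percentile, so that 0 is the brightness of the probe at that percentile; levels of different probes are not set against each other. A gene was called when limma's adjusted p was under 0.05 over all 32197 rows tested. The number of arrays, 3 in each group, limits the precision of every value. p-Nitroanisole replicate 3 lay on slide 2 and under scan 2, whereas the other 5 arrays shared slide 1 and scan 1. Its correlation with the other arrays over the rows tested was 0.9888 to 0.9908, against 0.9914 to 0.9945 among the other 5. The difference of each macrophage gene is given with and without it. Slide 2 holds 1 array, so no comparison within it was possible. On slide 1 all vehicle arrays lay in slide row 1, and p-nitroanisole replicates 1 and 2 lay in slide row 2. Treatment and slide row therefore cannot be told apart within slide 1.

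None of the macrophage genes passed the test, and no test between roles was run. Of the 9 genes measured above background, 0 were called, and 24 of the 32197 rows tested were called (0.0745%), 8 of them lower (0.0248%) and 16 higher (0.0497%). Before adjustment, 4 of the 9 had limma p under 0.05, against 13.4% of all rows, and 3 of these were lower by mean, against 5.76%. By mean level, 7 of the 9 were lower with p-nitroanisole, against 47.6% of all rows, and 2 were higher. The C1q chains, Fcgr3a, Tyrobp, Cd68 and Aif1 were between 1.23-fold (Tyrobp) and 2.00-fold (Fcgr3a) lower by mean, and Mrc1 was 1.44-fold higher by mean. The groups did not overlap, with p-nitroanisole lower, for 2 genes (Tyrobp and Cd68), against 10.3% of all rows, and with p-nitroanisole higher for 1 gene (Mrc1), against 11.9% of all rows. In either direction these are 3 of the 9 genes, against 22.2% of all rows. The median log2 difference over the 9 genes was -0.40, against 0.01 over all rows. Without p-nitroanisole replicate 3, which is also the comparison within slide 1, the median was -0.24. In that comparison the groups also lay in different slide rows. In bulk tissue, fewer macrophages and less RNA per macrophage cannot be told apart. The plot of levels by array shows each of these genes.

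**Figure D1:**
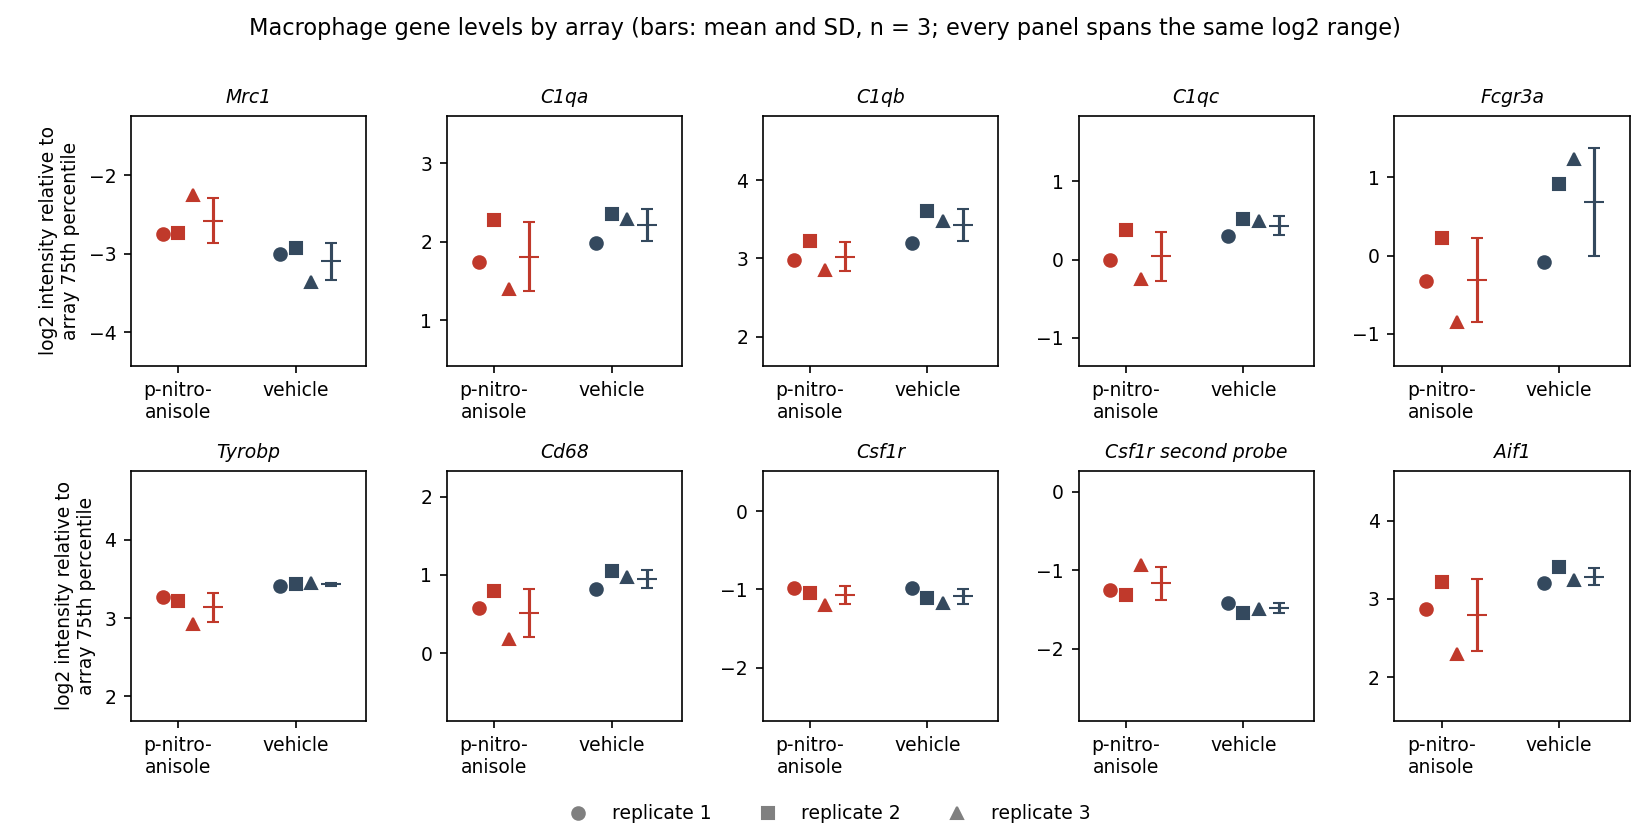
Log2 intensity relative to the array's 75th percentile (vertical axis) for the 9 macrophage genes above background, with the other Csf1r probe as a panel of its own; red points are p-nitroanisole arrays and dark points vehicle arrays, 1 point per rat, with mean and SD beside them (n = 3 each). Mrc1 and the other Csf1r probe lie higher in all p-nitroanisole arrays, Tyrobp and Cd68 lie lower in all of them, and in the remaining panels the groups overlap.

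Mrc1 was the one scavenger receptor of the pair that could be measured. Its level was -2.74, -2.74 and -2.25 in p-nitroanisole replicates 1, 2 and 3, against -3.00, -2.93 and -3.36 in vehicle replicates 1, 2 and 3. All 3 p-nitroanisole arrays lay above all 3 vehicle arrays, with p-nitroanisole replicate 3 highest. The means were -2.58 ± 0.28 with p-nitroanisole and -3.10 ± 0.23 with vehicle (SD, n = 3 each). The log2 difference was 0.52 (SE 0.18, 95% interval 0.07 to 0.97), with a limma adjusted p of 0.321. Without p-nitroanisole replicate 3 it was 0.36. The difference stood at percentile 96.3 of the differences of all rows. The other Mrc1 probe was well above background on 1 p-nitroanisole array and 1 vehicle array and was not tested, so the value of Mrc1 rests on 1 probe.

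Cd163, the haemoglobin scavenger receptor, was not well above background in any of the 6 arrays with any of its 3 probes. Their processed intensities were 3.74 to 14.8 with p-nitroanisole and 3.35 to 4.85 with vehicle, where the 75th percentile of an array was 877 to 1022. No difference in Cd163 was detectable at this signal, and the comparison of scavenger receptors with other macrophage genes therefore compares Mrc1 alone.

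The 3 C1q chains had nearly the same difference. C1qb and C1qc are adjacent genes in the RefSeq table, followed by C1qa. C1qa had levels of 1.75, 2.28 and 1.40 in the p-nitroanisole arrays, against 1.98, 2.36 and 2.30 in the vehicle arrays. C1qb had levels of 2.98, 3.22 and 2.86 in the p-nitroanisole arrays, against 3.20, 3.60 and 3.48 in the vehicle arrays. C1qc had levels of -0.01, 0.38 and -0.25 in the p-nitroanisole arrays, against 0.30, 0.51 and 0.49 in the vehicle arrays. In each chain, p-nitroanisole replicates 1 and 3 lay below every vehicle array, and p-nitroanisole replicate 2 lay above vehicle replicate 1 and below the other vehicle arrays.

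The log2 difference was -0.40 for C1qa (SE 0.24, limma adjusted p 0.509). It was -0.41 for C1qb (SE 0.14, limma adjusted p 0.319) and -0.39 for C1qc (SE 0.17, limma adjusted p 0.395). The largest and the smallest of these differed by 0.0147, against standard errors of 0.142 to 0.237. The other probe of each chain gave -0.35 for C1qa, -0.44 for C1qb and -0.47 for C1qc, and that of C1qb had groups that did not overlap. Without p-nitroanisole replicate 3 the differences were -0.20 for C1qa, -0.33 for C1qb and -0.25 for C1qc, and without p-nitroanisole replicate 2 that of C1qa was -0.64.

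Fcgr3a had the widest difference and the widest spread of the 9 genes measured. It encodes a low-affinity Fc receptor for IgG, and the RefSeq table lists CD16-2 and Fcgr4 among its synonyms. Its level was -0.33, 0.23 and -0.84 in the p-nitroanisole arrays, against -0.09, 0.91 and 1.23 in the vehicle arrays. The groups overlapped, since p-nitroanisole replicate 2 lay above vehicle replicate 1. The log2 difference was -1.00 (SE 0.42, 95% interval -2.03 to 0.03), with a limma adjusted p of 0.382. It stood at percentile 0.46 of the differences of all rows. Without p-nitroanisole replicate 3 the difference was -0.74.

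Tyrobp, the DAP12 adaptor, had the smallest spread among vehicle arrays of the 9 genes measured. Its level was 3.26, 3.21 and 2.93 in the p-nitroanisole arrays, against 3.41, 3.44 and 3.45 in the vehicle arrays. All p-nitroanisole arrays lay below all vehicle arrays, with an SD of 0.18 with p-nitroanisole and 0.02 with vehicle (n = 3 each). The log2 difference was -0.29 (SE 0.10, 95% interval -0.55 to -0.04), with a limma adjusted p of 0.320. Without p-nitroanisole replicate 3 it was -0.19. Fcgr3a and Tyrobp each have 1 probe on the array.

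Among the general macrophage genes, Cd68 and Aif1 were lower by mean and Csf1r was not. Cd68 had levels of 0.57, 0.79 and 0.19 with p-nitroanisole, against 0.82, 1.05 and 0.97 with vehicle. The groups did not overlap, and the highest p-nitroanisole array lay just below the lowest vehicle array. The log2 difference was -0.43 (SE 0.17, limma adjusted p 0.350), its other probe also gave -0.43 with groups that did not overlap, and without p-nitroanisole replicate 3 it was -0.27. Aif1 had levels of 2.87, 3.22 and 2.30 with p-nitroanisole, against 3.20, 3.41 and 3.24 with vehicle. The groups overlapped by p-nitroanisole replicate 2 alone, which lay just above vehicle replicate 1. The log2 difference of Aif1 was -0.49 (SE 0.23, limma adjusted p 0.432), against -0.30 and -0.29 by its other probes, and without p-nitroanisole replicate 3 the 3 probes gave -0.24, -0.07 and -0.09.

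Csf1r was measured by a pair of probes that did not give the same answer. By the brighter probe, the level was -0.98, -1.05 and -1.20 with p-nitroanisole, against -0.98, -1.11 and -1.17 with vehicle. The arrays of the groups were interleaved, and the log2 difference was 0.01 (95% interval -0.21 to 0.23, limma adjusted p 0.966). It was 0.07 without p-nitroanisole replicate 3. The sign of this difference turned under 5 alternatives and has no direction. By the other probe, the level was -1.26, -1.32 and -0.93 with p-nitroanisole, against -1.42, -1.54 and -1.50 with vehicle. These groups did not overlap, with a log2 difference of 0.32 (SE 0.12, limma adjusted p 0.335 with each probe as a row of its own). It was 0.20 without p-nitroanisole replicate 3, the highest array. Over all probes of the set, 16 of 20 were tested and 13 of the 16 were lower by mean.

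**Figure D2:**
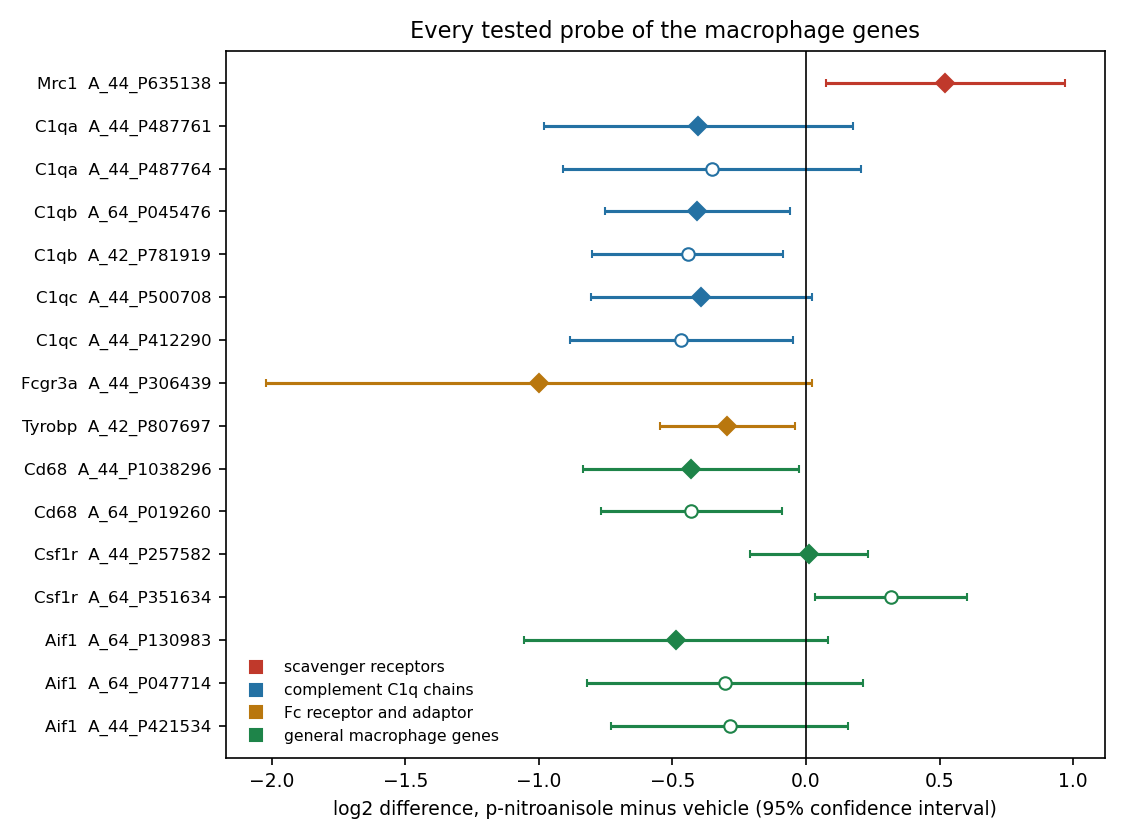
Log2 difference, p-nitroanisole minus vehicle (horizontal axis), of the 16 tested probes of the macrophage genes, with 95% intervals from limma with each probe as a row of its own. Probes of C1qa, C1qb, C1qc, Cd68 and Aif1 lie left of 0 for every probe of the gene, the Mrc1 probe lies at 0.52, and the 2 Csf1r probes lie at 0.01 and 0.32.

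The lower genes varied together from array to array, within vehicle as well as within p-nitroanisole. p-Nitroanisole replicate 3 was the lowest of the 6 arrays for 8 of the 9 genes, Mrc1 being the exception, where it was the highest. Over all rows it was lowest in 22.4%, and over the rows lower by mean in 39.6%. For the 7 genes lower by mean, vehicle replicate 1 was the lowest vehicle array in 7 of 7, and p-nitroanisole replicate 2 was the p-nitroanisole array nearest to the vehicle mean in 6 of 7. For 4 genes (C1qa, C1qb, C1qc and Aif1) the order of all 6 arrays was the same. For these last 3 counts no share over all rows was taken, and all the counts use 1 probe per gene. By the other Csf1r probe, p-nitroanisole replicate 3 was the highest array. By the other C1qb probe, p-nitroanisole replicate 2 (3.18) lay just below vehicle replicate 1 (3.19), so the order differed. The plot of role groups by array gives the levels with each gene set to 0 at its vehicle mean.

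**Figure D3:**
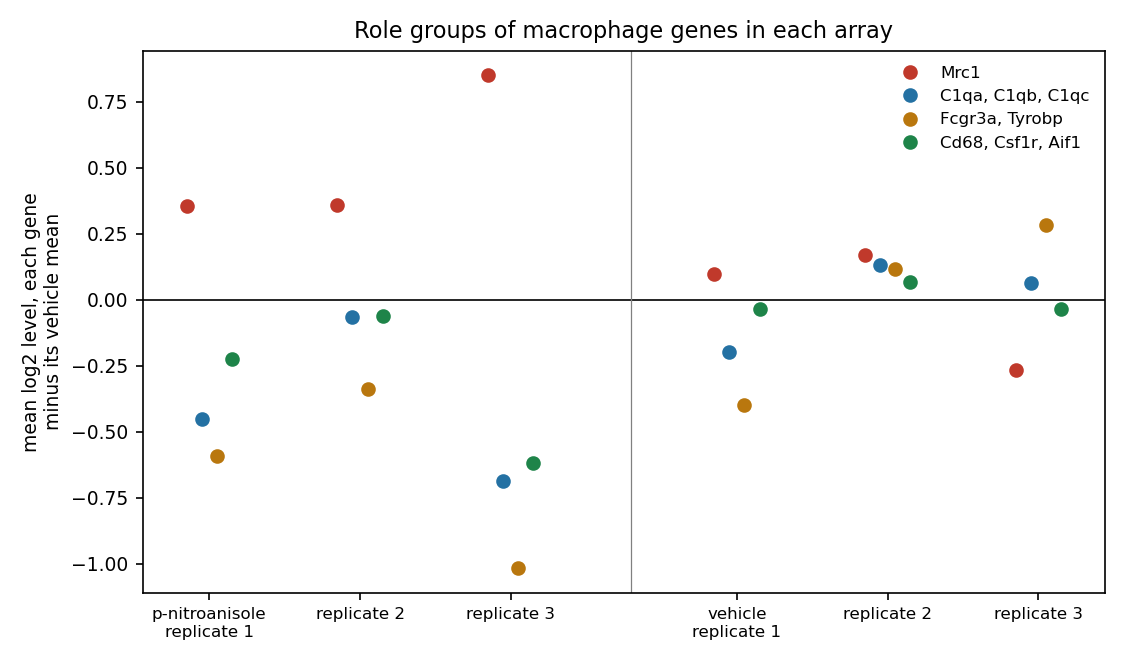
Mean log2 level of each role group in each array (vertical axis), every gene minus its own vehicle mean, with p-nitroanisole arrays on the left and vehicle arrays on the right. Mrc1 lies at 0.85 and the C1q chains at -0.69 in p-nitroanisole replicate 3, and in p-nitroanisole replicate 2 the C1q chains lie at -0.06 while Mrc1 lies at 0.36.

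Relative to the vehicle mean, the C1q chains stood at -0.45, -0.06 and -0.69 in p-nitroanisole replicates 1, 2 and 3, against -0.20, 0.13 and 0.06 in vehicle replicates 1, 2 and 3. Fcgr3a and Tyrobp together stood at -0.59, -0.34 and -1.02 with p-nitroanisole, against -0.40, 0.12 and 0.28 with vehicle. Cd68, Csf1r and Aif1 together stood at -0.22, -0.06 and -0.62 with p-nitroanisole, against -0.03, 0.07 and -0.04 with vehicle. In p-nitroanisole replicate 2 the C1q and Fc groups were higher than in vehicle replicate 1. Mrc1 minus the C1q chains within an array was 0.81, 0.42 and 1.54 with p-nitroanisole, against 0.29, 0.04 and -0.33 with vehicle, all on the log2 scale. The p-nitroanisole arrays were higher than every vehicle array in this difference, which averaged 0.92 ± 0.57 with p-nitroanisole and 0 ± 0.31 with vehicle (SD, n = 3 each). It is a description without a test, because the genes were chosen with results known, and without p-nitroanisole replicate 3 the mean was 0.62.

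Other macrophage and monocyte markers were lower by mean nearly throughout, with no call. Of 27 tested, 26 were lower and 1 (Ccr2, the receptor for CCL2) was higher at a log2 difference of 0.25, with a median of -0.25 for the list. The groups did not overlap, with p-nitroanisole lower, in 12 of the 27, against 10.3% of all rows. Clec4a3, a C-type lectin receptor, had levels of -0.16, 0.19 and -0.06 with p-nitroanisole, against 0.71, 0.53 and 0.71 with vehicle. Its log2 difference was -0.66 (SE 0.11, limma adjusted p 0.133), and its lowest array was p-nitroanisole replicate 1. Pld4, an exonuclease of endolysosomes, gave -0.52 (SE 0.17, limma adjusted p 0.291), or -0.35 without p-nitroanisole replicate 3, and Siglec1, the sialic acid receptor CD169, gave -0.49 (SE 0.15, limma adjusted p 0.274), or -0.15 with normexp background correction. Among the markers chosen to check for these cells, Adgre1 (EMR1), Cd14, Spi1 and Cx3cr1 had log2 differences of -0.05, -0.03, -0.02 and -0.07. Their groups overlapped. Laptm5, Ptprc, Lyz2 and Ctss, chosen in the same way, gave -0.25, -0.35, -0.34 and -0.41, with p-nitroanisole lower and groups that did not overlap. The others so chosen were Ccr2, given above, and Ms4a7, for which no probe was named. Whether each of these markers is particular to macrophages and monocytes, and not shared with other leukocytes, was not tested. The summed level of the list, in units of an array's 75th percentile, was 172 to 204 with p-nitroanisole and 191 to 256 with vehicle. This sum rests mostly on Apoe and Lyz2, whose mean levels with vehicle were 6.67 and 6.17, and does not stand for each marker. Apoe had a log2 difference of -0.14 with groups that overlapped and an SD of 0.57 among the vehicle arrays. p-Nitroanisole replicate 3 was the lowest array for 16 of the 27. Within slide 1, 23 of the 27 were lower and the median was -0.20, and with normexp background correction 23 were lower and the median was -0.16.

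Other scavenger and clearance receptors had no common sign. Of 17 tested, 11 were higher and 6 lower by mean, 0 were called, and the median was 0.02. Scara3, a class A scavenger receptor, gave a log2 difference of 0.65 (SE 0.24, limma adjusted p 0.340), and Scarb1, the receptor for high-density lipoprotein, gave 0.59 (SE 0.21, limma adjusted p 0.319). Cd209a, a lectin that binds mannose-rich glycans, gave -0.47 (SE 0.10, limma adjusted p 0.169), or -0.19 with normexp. These 3 genes were named because their groups did not overlap. This held for 2 of 17 with p-nitroanisole higher and 1 of 17 lower, against 11.9% and 10.3% of all rows. Msr1, the class A macrophage scavenger receptor, named here after its value was seen, gave -0.41 with groups that overlapped. Marco and Cd5l, both macrophage scavenger proteins, were not well above background on any array.

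The genes for clearance of haemoglobin and heme held the largest difference of the lists. Hmox1, heme oxygenase 1, which breaks heme down to biliverdin, iron and carbon monoxide, had levels of 1.83, 1.44 and 2.01 with p-nitroanisole, against -1.87, -1.66 and -1.71 with vehicle. It rose by 3.51 on the log2 scale (SE 0.16, limma adjusted p 0.0200), 11.4-fold, and the arrays of the groups lay far apart. The difference was 3.38 to 3.67 when 1 array was left out, and the limma adjusted p was then 0.0169 to 0.136, so that the call was lost without p-nitroanisole replicate 1 (0.136), vehicle replicate 1 (0.112) or vehicle replicate 2 (0.114). Of the 10 genes tested in this list, 7 were higher and 3 lower by mean, 1 was called, and the median was 0.07. Under quantile normalization the median was -0.02, with 4 of 10 higher. The groups did not overlap in 4 of 10 with p-nitroanisole higher and in 1 of 10 lower, against 11.9% and 10.3% of all rows. Besides Hmox1, and named after their values were seen, these were Slc40a1 (0.37), Blvrb (0.29) and Slc48a1 (0.27) higher and Blvra (-0.39) lower. Hp, which encodes haptoglobin and was named after its value was seen, gave -0.11 (limma adjusted p 0.613).

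Other Fc receptors and ITAM-linked genes were divided. Of 15 tested, 7 were higher and 8 lower by mean, 0 were called, and the median was -0.02. Fcer1g, the Fc receptor gamma chain with which FcγRIIIA and related receptors assemble, had levels of 2.46, 2.55 and 1.99 with p-nitroanisole, against 2.61, 2.95 and 3.02 with vehicle. Its groups did not overlap, and its log2 difference was -0.52 (SE 0.19, limma adjusted p 0.322). Clec7a, the beta-glucan receptor dectin-1, gave -0.55 (SE 0.12, limma adjusted p 0.174), or -0.20 with normexp. Trem2, a lipid receptor that signals through TYROBP, had levels of -1.49, -1.43 and -0.91 with p-nitroanisole, against -1.56, -1.79 and -2.23 with vehicle. It was thus higher in all 3 p-nitroanisole arrays than in any vehicle array, as Mrc1 was, with p-nitroanisole replicate 3 highest, and its log2 difference was 0.58 (SE 0.23, limma adjusted p 0.359).

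In the rest of the classical complement pathway and its regulators, 4 of 12 genes tested were higher and 8 lower by mean, 0 were called, and the median was -0.05. C3, the central component, had levels of 0.09, 0.58 and -0.68 with p-nitroanisole, against 0.64, 0.75 and 0.74 with vehicle. The groups did not overlap, the p-nitroanisole arrays were widely spread, and the log2 difference was -0.71 (SE 0.31, limma adjusted p 0.397). It was -0.37 without p-nitroanisole replicate 3, and without p-nitroanisole replicate 2 it was -1.01. C4a, a C4 component that C1s cleaves, gave -0.41 (SE 0.12, limma adjusted p 0.256).

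Of the macrophage growth factors and receptors, 5 of 8 genes tested were higher and 3 lower by mean, with 0 called and a median of 0.02. Il34, a ligand of CSF1R that renal tubule cells make, had levels of 4.08, 4.26 and 4.16 with p-nitroanisole, against 4.68, 4.62 and 4.46 with vehicle. The groups did not overlap, and the log2 difference was -0.43 (SE 0.09, limma adjusted p 0.165). Csf1, the other ligand of CSF1R, named after its value was seen, gave 0.19 (SE 0.16, limma adjusted p 0.637) with groups that overlapped.

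The chemokines that recruit monocytes held differences of opposite sign. Of 11 tested, 4 were higher and 7 lower by mean, 0 were called, and the groups did not overlap in 4 with p-nitroanisole higher and in 1 (Ccl6) with p-nitroanisole lower, against 11.9% and 10.3% of all rows. Ccl2, a ligand of CCR2, had levels of 0.14, -0.14 and -0.13 with p-nitroanisole, against -0.53, -1.54 and -0.99 with vehicle. Its log2 difference was 0.97 (SE 0.26, limma adjusted p 0.227). Ccl12 gave 1.13 (SE 0.30, limma adjusted p 0.228) and Ccl7 gave 0.79 (SE 0.22, limma adjusted p 0.242), whereas Ccl6 gave -0.56 (SE 0.11, limma adjusted p 0.163). With normexp, Ccl12 gave 0.69 and Ccl7 gave 0.40. The vehicle arrays were more widely spread than the p-nitroanisole arrays in Ccl2, Ccl7 and Ccl12.

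Genes of macrophage activation states were not called in either direction. Of the alternative activation genes, 4 of 12 tested were higher and 8 lower by mean, with a median of -0.12. Arg1, arginase 1, gave a log2 difference of -0.56 (SE 0.20, limma adjusted p 0.325), Cd200r1, an inhibitory receptor, gave -0.48 (SE 0.17, limma adjusted p 0.316), and Tgm2, transglutaminase 2, gave -0.31 (SE 0.13, limma adjusted p 0.375). Of the classical activation genes, 7 of 12 tested were higher and 5 lower by mean, with a median of 0.04. Cxcl9, an interferon-gamma induced chemokine, gave -1.29 (SE 0.43, limma adjusted p 0.303), and Socs3, an inhibitor of cytokine signalling, gave 0.37 (SE 0.09, limma adjusted p 0.205). These 5 genes were named because their groups did not overlap. Among the alternative activation genes this held for 3 of 12, all lower with p-nitroanisole. Among the classical ones it held for 1 of 12 higher and 1 of 12 lower. Over all rows the shares were 11.9% higher and 10.3% lower. With normexp, Cd200r1 gave -0.04 and Cxcl9 gave -0.56. The plot of gene lists sets these beside the macrophage genes.

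**Figure D4:**
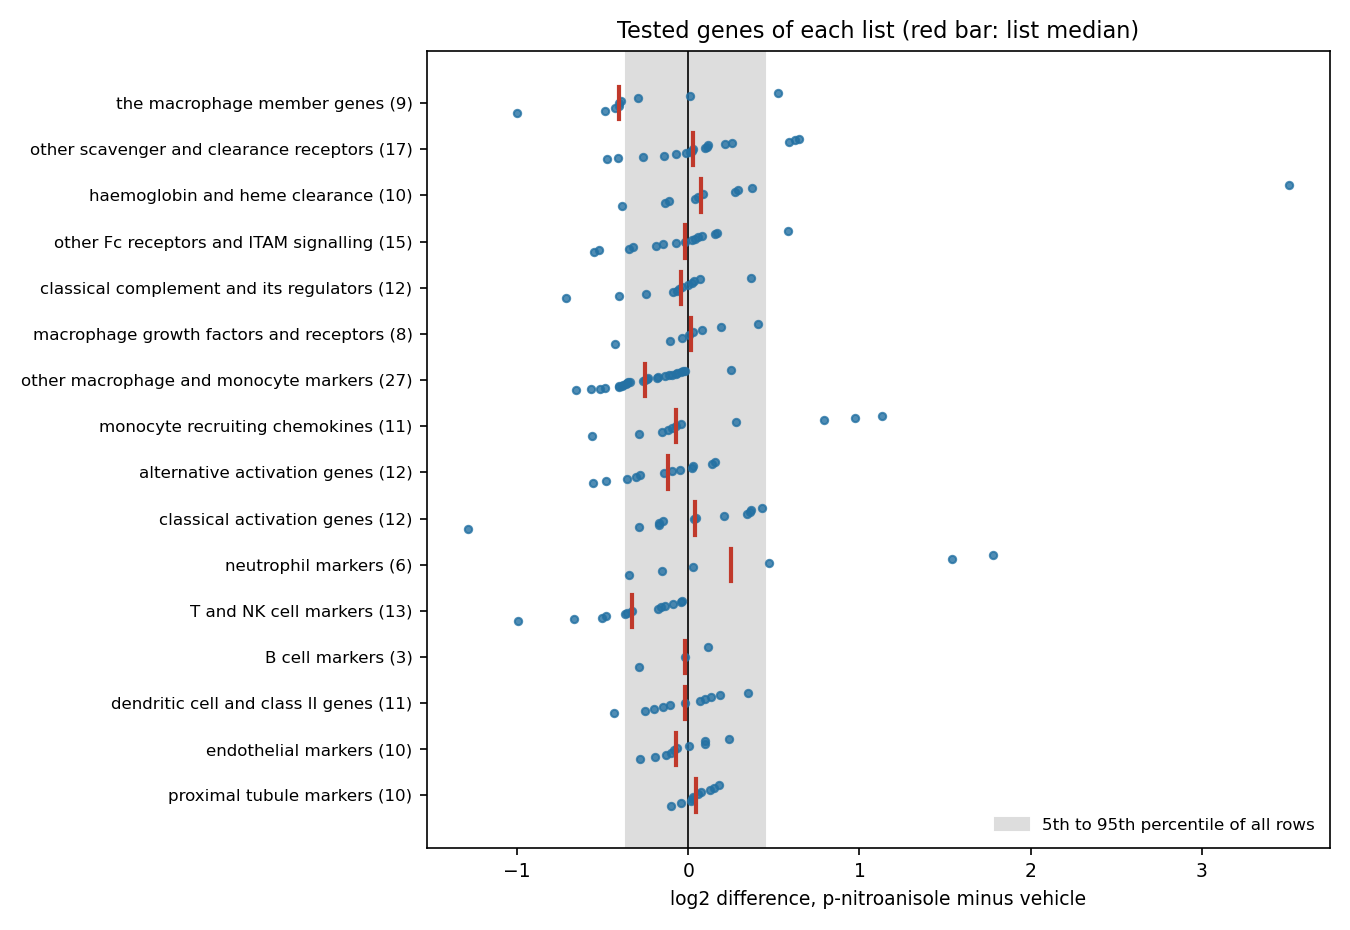
Log2 difference, p-nitroanisole minus vehicle (horizontal axis), of every tested gene of the macrophage role groups and of the other lists (1 point per gene, with a bar at the list's median). The other macrophage markers have a median of -0.25 and the T and NK cell markers one of -0.33 (-0.18 over the 11 above background on all 6 arrays), while the medians of the other scavenger receptors, the growth factors and the tubule markers lie at 0.02, 0.02 and 0.04.

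Markers of other cell types in the cortex are given beside these genes, and their part in the results was not tested. All 13 T and NK cell markers tested were lower by mean, with 0 called and a median of -0.33. Of these, Cd3e and Cd5 passed the filter through the vehicle arrays alone, and the 11 markers above background on all 6 arrays had a median of -0.18. The summed level of the 13 was 2.52 to 3.36 with p-nitroanisole and 3.27 to 3.48 with vehicle. Their array medians were -0.37, 0.08 and -0.60 in the p-nitroanisole arrays, against -0.08, -0.08 and 0.17 in the vehicle arrays, so that p-nitroanisole replicate 3 was lowest there too. Within slide 1, 8 of the 13 were lower and the median was -0.18, and with normexp background correction 10 were lower and the median was -0.06. Gzmb, granzyme B, gave -1.00 (SE 0.22, limma adjusted p 0.178), or -0.45 with normexp, and Ncr1, which defines NK cells, was not well above background on any array. In the neutrophil list, 4 of 6 tested were higher by mean and S100a8, a calcium-binding protein of neutrophils and monocytes, rose by 1.78 on the log2 scale (SE 0.16, limma adjusted p 0.0453). Its call was lost whichever array was left out, with a difference of 1.69 to 1.92 and a limma adjusted p of 0.0897 to 0.162, and under quantile normalization (limma adjusted p 0.0520). The summed level of that list was 1.67 to 1.77 with p-nitroanisole and 0.854 to 0.984 with vehicle. It does not stand for each marker. S100a9 gave a log2 difference of 1.54 (limma adjusted p 0.0661) and Camp one of 0.47, whereas Csf3r, Lcn2 and Mmp9 gave 0.03, -0.16 and -0.34. Elane, Cxcr2, Mmp8, Ngp and Ltf were not well above background on any array. Of the 3 B cell markers tested, 1 was higher and 2 lower by mean, with a median of -0.02, or -0.09 without Cd79b, which passed the filter through the p-nitroanisole arrays alone, and a summed level of 1.59 to 2.70 with p-nitroanisole and 1.56 to 2.16 with vehicle. Of the 11 dendritic cell and class II genes tested, 5 were higher and 6 lower by mean, with a median of -0.02 and a summed level of 56.7 to 96.0 with p-nitroanisole and 61.7 to 88.2 with vehicle.

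Some endothelial cells also carry MRC1. Of the 10 endothelial markers tested, 4 were higher and 6 lower by mean, the median was -0.07, and the summed level was 85.3 to 97.9 with p-nitroanisole and 93.9 to 99.8 with vehicle. Pecam1, an adhesion protein of all endothelium, gave a log2 difference of 0.00. Emcn, endomucin of capillaries and veins, gave -0.19 (SE 0.07, limma adjusted p 0.326) with groups that did not overlap. This held for 1 of the 10, with p-nitroanisole lower, against 10.3% of all rows. Lyve1 and Flt4, named after their values were seen, gave -0.28 and 0.24 with groups that overlapped. Prox1 was not well above background on any array, and no probe was named for Stab2. Which cells the Mrc1 signal came from was not tested. The labelled tissue was borne out by the proximal tubule markers, all 10 of which were tested, with a summed level of 1834 to 1912 with p-nitroanisole and 1785 to 1832 with vehicle. Of these, 8 were higher and 2 lower by mean with a median of 0.04, which turned to 4 higher, 6 lower and a median of -0.06 under quantile normalization.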

How the data were processed

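Total RNA of 6 renal cortices was measured on 1-colour Agilent arrays. The deposited scanner output holds spot intensity values from Agilent Feature Extraction 10.7, per the submitters' processing notes, with the background subtracted and spatially detrended per the file headers, and not scaled between arrays. The series matrix of the authors, used as an alternative, holds the same values as a linear signal, each a ratio to 1 constant per array within 0.253% of that array's 75th percentile. It has no centring per gene, and a 1-colour value has no direction. Its column medians were 0.109, 0.108 and 0.111 for p-nitroanisole and 0.105, 0.105 and 0.105 for vehicle.

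From the deposited intensity values, log2 levels minus each array's 75th percentile were computed, after a floor of 1. The 1439 control spots of each array were removed, as were its 0 to 4 outlier-flagged spots. Symbols came from accessions in a RefSeq gene table (GRCr8, not the array design's build), which named 28206 of 61537 probes (45.84%). Testing required a probe to pass the background flag on every array of either group. The brightest such probe by mean represented its gene, and each unnamed probe formed 1 row. The 32197 rows were fitted with limma (version 3.58.1, under R 4.3.3) by lmFit and eBayes (two-sided, Benjamini-Hochberg over all rows, threshold 0.05). The script was tested on simulated data. Members, gene lists and tests were chosen with earlier results of these data known. From other lists, called genes are named, otherwise up to 3 with the largest difference whose groups do not overlap. Replicates are separate animals per the labels.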

Additional observations from a re-analysis of the deposited data

How the results depend on the processing

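No macrophage gene was called by limma at the setting used or under any of 19 alternatives, with 4 genes at an unadjusted p under 0.05 at the setting used and 0 to 8 under the alternatives. Apart from Csf1r, none of the 9 genes measured changed sign under these alternatives. The 19 hold a repeat, because the setting for slide was the comparison within slide 1. That setting gave the same values as leaving out p-nitroanisole replicate 3. The Csf1r difference was -0.044 under median scaling, -0.11 within slide row 1, -0.03829 without p-nitroanisole replicate 1, -0.001371 without p-nitroanisole replicate 2 and -0.03 without vehicle replicate 3, with 0.07398 as its highest value when 1 array was left out (p-nitroanisole replicate 3). The median of the 9 genes, -0.40, was -0.56 to -0.24 when 1 array was left out and -0.68 within slide row 1, which holds all vehicle arrays and p-nitroanisole replicate 3. Mrc1 minus C1q, 0.92, was 0.62 to 1.17 when 1 array was left out and 1.54 within slide row 1.

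The count of rows called over the whole array was 24 at the setting used. It was 85 with normexp background correction, 2 with no filter and 14 with the mean of a gene's probes. It was 316 with a trended and robust variance and 0 at a threshold of 0.01 (4329 rows at an unadjusted p under 0.05). Within slide 1, which only leaves out p-nitroanisole replicate 3, 9 rows were called, and slide was not adjusted for. Clec4a3 was called with the trended and robust variance (limma adjusted p 0.0478). Leaving out 1 array gave 0 to 9 rows (3262 to 4361 rows at an unadjusted p under 0.05). With the replicate number as a block 1 row was called, and Hmox1 (adjusted p 0.161) and S100a8 (0.202) were not; arrays of the same number correlated at -0.00877, 0.0397 and -0.0102 in their deviations, so the numbers do not pair the animals. The slide row and normexp on the median spot signal were chosen after seeing the data; the planned normexp on the mean spot signal was not run. The causes of these differences were not tested. The widest 95% interval among the 9 genes was that of Fcgr3a, -2.03 to 0.03 on the log2 scale.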
